A study of Mus musculus with 8 samples.

Results

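The 9 genes followed here were measured in whole mouse brain and are all known for their expression in the principal neurons of the cerebellar cortex. The Purkinje cell genes are Pcp2, Car8 and Ppp1r17, and the granule cell genes are Cbln1, Cbln3, Zic1, Zic2, Neurod1 and Fat2. They were chosen by symbol, and all 9 of the 9 symbols were found among the 24343 genes measured, as 11 of the 34535 transcripts. Whole brains of 3 C57BL/6NCrl mice aged 56 to 62 days were measured by bulk RNA-seq with no treatment, as 3 libraries of mouse 1, 3 of mouse 2 and 2 of mouse 3. The sex of these mice and the meaning of the library number are not given in the labels. Libraries of a mouse are not separate animals, so an SD between mice has n = 3, and every p-value compares these 3 mice against the spread between libraries of a mouse, which may be technical.

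Granule cells are the most numerous neurons of the brain. They send parallel fibres onto the dendrites of Purkinje cells, which are far fewer, much larger and the only output of the cerebellar cortex. At this synapse Cbln1, a secreted protein of the C1q family, joins the parallel fibre to the Purkinje cell dendrite, and Cbln3 is its granule cell partner. Several of the 9 genes are also active outside the cerebellum: Zic1 and Zic2 in the olfactory bulb and midline structures, Neurod1 in the dentate gyrus and Cbln1 in the thalamus. In RNA from a whole brain, fewer cells of a type and less RNA per cell cannot be told apart.

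Values are FPKM, fragments scaled to transcript length and to the number of mapped fragments, summed over the transcripts of a gene. Library 2 of mouse 3 stood apart from the other 7 libraries. Depth, as coverage multiplied by transcript length, ran from 1.31 to 2.02 gigabases over the libraries, and library 2 of mouse 3, at 1.79, was neither the deepest nor the shallowest. A mean of 1 FPKM or more was required for testing, and of the 13001 genes that met it 33.4% were highest in this library and 28.9% were lowest in it. Short transcripts read higher in it than in library 1 of the same mouse, with a median ratio of 1.19 among the 2590 shortest genes, and long ones read lower, with 0.858 among the 2589 longest. Results on mouse 3 are therefore given with and without this library.

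Pcp2 is a short gene on chromosome 8 (mm10 chr8:3623371-3625545 in the deposited table), and the 3 transcripts listed for it differ in where they start. The 250 bases before 2 of these starts are shown because both hold the half-site AGGTCA. Nuclear receptors share these letters, among them Rora, which Purkinje cells need, and binding was not tested. The windows are taken from RefSeq on GRCm38.p6 and run 5′ to 3′ on the minus strand, with matches to the searched motifs in capitals. The first belongs to NM_001129804, the transcript of highest FPKM, and spans chr8:3625037-3625286. The second belongs to NM_001129803, the lowest, and spans chr8:3625548-3625797.
Pcp2 NM_001129804: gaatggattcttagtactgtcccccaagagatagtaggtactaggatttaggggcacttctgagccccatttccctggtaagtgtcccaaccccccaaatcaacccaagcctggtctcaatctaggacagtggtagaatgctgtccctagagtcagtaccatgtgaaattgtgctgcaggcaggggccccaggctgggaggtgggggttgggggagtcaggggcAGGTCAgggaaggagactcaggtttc
Pcp2 NM_001129803: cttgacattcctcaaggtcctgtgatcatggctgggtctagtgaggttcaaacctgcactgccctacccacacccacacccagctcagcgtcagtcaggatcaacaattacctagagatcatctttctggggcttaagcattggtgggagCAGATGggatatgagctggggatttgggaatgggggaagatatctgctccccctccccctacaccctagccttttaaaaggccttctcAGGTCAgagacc

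In the first window AGGTCA starts 26 bases before the RefSeq start, and that start lies 13 bases from the deposited one. The window of NM_008790 (chr8:3625283-3625532), the remaining transcript, holds none of the motifs listed next. In the second window, AGGTCA starts 12 bases and CAGATG, an E-box of the kind bound by bHLH factors such as Neurod1, 100 bases before the start. A further RefSeq start nearest to the same transcript, 73 bases from the deposited one, has these matches 87 and 175 bases before it. The motifs searched on both strands were AGGTCA, the E-boxes CAGATG and CAGCTG, and CAGCAGG, letters of the kind bound by Zic proteins. AGGTCA and CAGCAGG can share letters (AGG), and no match shown overlaps another. Over 32807 promoter windows of 250 bases, 14.0% held AGGTCA, 14.5% CAGATG, 13.0% CAGCTG and 8.45% CAGCAGG, so a match is common.

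For the granule cell genes that were lower in mouse 3, the windows of Neurod1 (chr2:79456637-79456886) and Zic1 (chr9:91365769-91366018), both on the minus strand, are shown for comparison with those of Pcp2.
Neurod1: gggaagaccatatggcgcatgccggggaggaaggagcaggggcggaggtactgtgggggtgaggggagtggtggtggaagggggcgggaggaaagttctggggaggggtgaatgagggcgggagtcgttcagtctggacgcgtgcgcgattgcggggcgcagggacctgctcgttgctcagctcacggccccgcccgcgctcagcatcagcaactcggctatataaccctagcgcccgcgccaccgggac
Zic1: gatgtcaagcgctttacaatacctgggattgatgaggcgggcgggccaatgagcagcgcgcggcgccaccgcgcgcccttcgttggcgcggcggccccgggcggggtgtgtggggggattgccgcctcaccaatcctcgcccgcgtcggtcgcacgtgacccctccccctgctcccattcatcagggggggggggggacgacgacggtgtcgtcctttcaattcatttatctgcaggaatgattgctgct

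Both are rich in G and C, at 67.6% for Neurod1 and 66.0% for Zic1, beside 54.8% in the Pcp2 window of NM_001129804 and a median of 52.4% over all windows. Neither holds any of the 4 motifs, nor does that of Cbln3 (chr14:55884257-55884506). The window of Fat2 (chr11:55312258-55312507) holds AGGTCA on the opposite strand, 31 bases before the start. RefSeq extends Fat2 to 55337505, so this start is not its outermost one. The RefSeq start used for Zic1 lies 31 bases from the deposited one. Windows were found for 5 of the 9 genes. Car8, Ppp1r17, Cbln1 and Zic2 had no entry.

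The 9 genes are protein-coding, and 8 of them have a single transcript in the deposited table. On mm10 the deposited loci of the other Purkinje cell genes are chr4:8141493-8239041 for Car8 and chr6:56017515-56032688 for Ppp1r17. Those of the granule cell genes are chr8:87468853-87472592 for Cbln1, chr14:55878920-55884256 for Cbln3, chr9:91360345-91365799 for Zic1, chr14:122475384-122480328 for Zic2, chr2:79452641-79456636 for Neurod1 and chr11:55250610-55312257 for Fat2. Of these 8, Fat2 had the lowest mean read coverage per base, between 9.10 and 16.6 over the libraries, and its deposited bounds lay within 6.86% of the value in every library. For Ppp1r17 the bounds lay within 13.1% and for Car8 within 3.99%.

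All 9 genes were above the minimum of 1 FPKM, and Pcp2 was the highest at 106 ± 31.3 FPKM (SD, n = 3), above 97.8% of all genes. Cbln1 followed at 54.2 ± 2.25, Car8 at 43.3 ± 9.50 and Cbln3 at 40.2 ± 1.91 FPKM. Then came Zic1 at 29.0 ± 3.33, Neurod1 at 21.0 ± 4.43, Zic2 at 17.2 ± 3.00 and Ppp1r17 at 16.4 ± 2.04 FPKM. Fat2, a giant cadherin of parallel fibres, was the lowest at 6.21 ± 0.340 FPKM, above 67.4% of all genes. Neighbours in this order differed by more than the larger of their SDs, with 3 exceptions. Car8 exceeded Cbln3 in 4 of 8 libraries and Zic2 exceeded Ppp1r17 in 6 of 8, so neither pair had a stable order. Neurod1 and Zic2 differed by 3.83 FPKM, less than the SD of Neurod1, although Neurod1 was higher in 8 of 8 libraries. The cells' own markers outside these 9 were present as well, with Gabra6, the granule cell subunit of the GABA-A receptor, at 33.8 ± 3.94 FPKM and Calb1, a calcium buffer of Purkinje and other neurons, at 73.4 ± 11.2 FPKM.

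**Figure D1:**
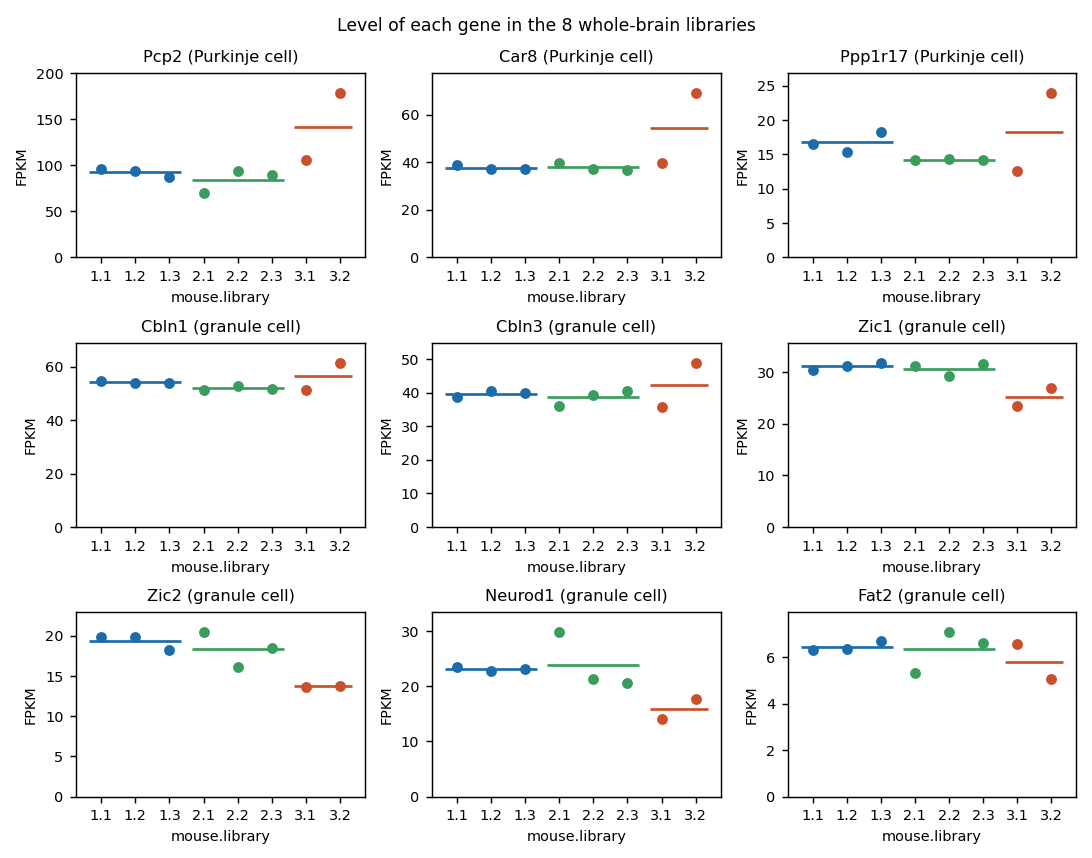
FPKM of each of the 9 genes (vertical axes, each from 0) in the 8 libraries, named mouse.library on the horizontal axes; points are libraries, coloured by mouse, and horizontal lines are means over the libraries of a mouse. Pcp2, Car8 and Ppp1r17 stand highest in library 2 of mouse 3, at 179, 69.1 and 24.0 FPKM, while Zic1, Zic2 and Neurod1 are below all libraries of mice 1 and 2 in both libraries of mouse 3.

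The Purkinje cell genes were highest in a single library of mouse 3. Pcp2, which encodes a modulator of inhibitory G proteins, read 96.4, 94.4 and 87.3 FPKM in mouse 1, 69.5, 94.1 and 89.3 in mouse 2, and 106 and 179 in mouse 3. Car8, a catalytically inactive carbonic anhydrase that binds the inositol trisphosphate receptor, read 39.0, 37.0 and 37.2 FPKM in mouse 1, 39.8, 37.0 and 36.9 in mouse 2, and 39.5 and 69.1 in mouse 3. Ppp1r17, an inhibitor of protein phosphatases, read 16.6, 15.4 and 18.3 FPKM in mouse 1, 14.2, 14.3 and 14.3 in mouse 2, and 12.7 and 24.0 in mouse 3. Library 2 of mouse 3 was the highest of all 8 for each of these 3 genes. In library 1 of mouse 3, by contrast, Car8 lay within the range of mice 1 and 2, Ppp1r17 was the lowest of the 8 libraries and Pcp2 was above the other 6.

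Library 2 exceeded library 1 of mouse 3 by 1.69-fold for Pcp2, 1.75-fold for Car8 and 1.89-fold for Ppp1r17. Ratios of at least 1.5 were seen for these 3 of the 9 genes and for 3.65% of tested genes. The ratio was lower than that of Pcp2 in 98.5% of tested genes, than that of Car8 in 98.8% and than that of Ppp1r17 in 99.2%. The deposited confidence bounds of both libraries did not overlap for 9 of the 11 transcripts of the 9 genes, the exceptions being those of Zic2 and the lowest Pcp2 transcript, and for 33.4% of all transcripts with at least 1 FPKM. With 1 library on each side of this ratio, it has no replicate check.

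Transcript length moved with the ratio of both libraries of mouse 3, and the 3 Purkinje cell genes lie at different lengths. Pcp2, at 473 nucleotides for its highest transcript, is among the short genes, and the 245 tested genes of 400 to 600 nucleotides had a median ratio of 1.30, with 43 of them at 1.5 or more. Car8, at 5722 nucleotides, is long, and among 1137 genes of 5000 to 6500 nucleotides the median ratio was 0.893 and 3, Car8 included, reached 1.5. Ppp1r17 has 1738 nucleotides, and of 1561 genes of 1500 to 2000 nucleotides 78 reached 1.5. After the trend with length was removed from every library, library 2 exceeded library 1 of mouse 3 by 0.93 for Car8, 0.76 for Ppp1r17 and 0.38 for Pcp2 on the scale of log2(FPKM + 1), beside 0.79, 0.87 and 0.75 before. Against the mean of the 8 libraries, library 2 of mouse 3 then stood at 0.93 for Car8, 0.37 for Ppp1r17 and 0.05 for Pcp2, beside 0.74, 0.56 and 0.85 before. Among the granule cell genes, the excess of library 2 over library 1 without the trend ran from 0.01 for Zic2 to 0.54 for Cbln3, with Fat2 at 0.11.

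**Figure D2:**
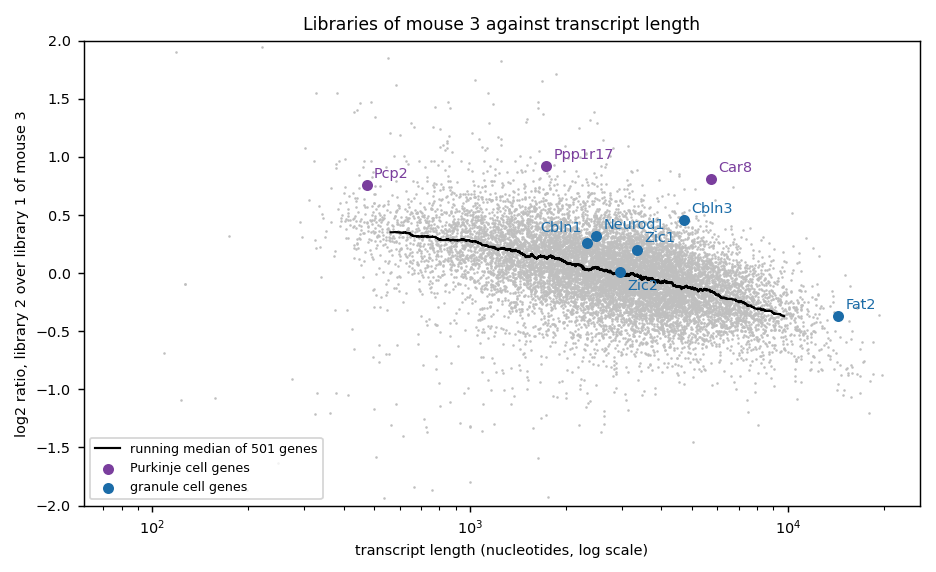
Log2 ratio of FPKM in library 2 over library 1 of mouse 3 (vertical axis) against transcript length in nucleotides (horizontal axis, log scale); grey points are tested genes, the line is a running median over neighbours in length, and 22 genes beyond ±2 are not drawn. Car8 lies at 0.81 and 5722 nucleotides, far above the line, whereas Fat2, the longest of the 9 at 14423 nucleotides, lies at −0.37.

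The 3 transcripts of Pcp2 were all highest in library 2 of mouse 3. NM_001129804 read 56.4, 62.0 and 46.3 FPKM in mouse 1, 32.1, 51.8 and 47.2 in mouse 2, and 59.8 and 107 in mouse 3. NM_008790 read 34.6, 29.6 and 35.9 FPKM in mouse 1, 32.0, 38.0 and 37.5 in mouse 2, and 39.3 and 62.3 in mouse 3. NM_001129803 stayed between 2.77 and 8.81 FPKM. The mean shares were 56.3 ± 4.26% for NM_001129804, 38.3 ± 3.89% for NM_008790 and 5.40 ± 0.552% for NM_001129803 (SD, n = 3). In library 2 of mouse 3 these shares were 60.2%, 34.9% and 4.93%, each inside the range of the other 7 libraries. In library 1 of mouse 2, where Pcp2 was lowest, NM_001129804 took 46.2% and NM_008790 46.1%. The authors' program divided reads between these overlapping transcripts, so each of them is less certain than their sum.

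**Figure D3:**
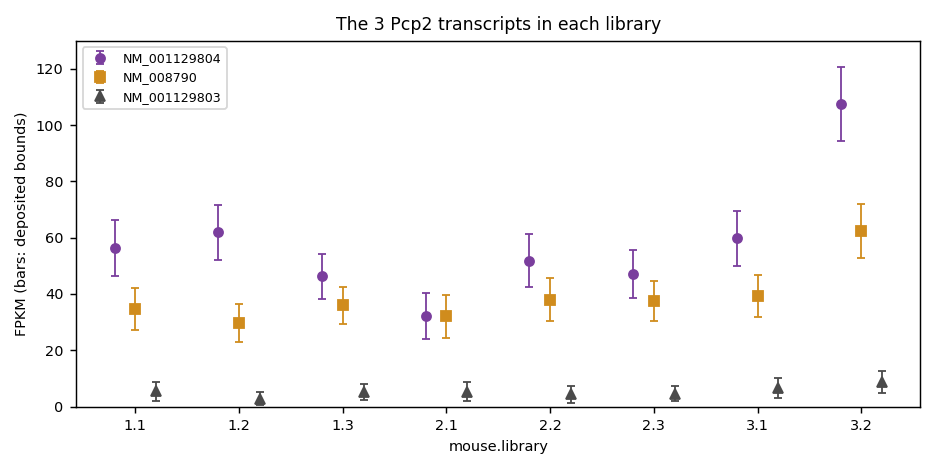
FPKM of the 3 Pcp2 transcripts (vertical axis) in each library (horizontal axis, mouse.library); bars are the lower and upper confidence bounds that the authors deposited. NM_001129804, at 107 FPKM in library 2 of mouse 3, has bounds of 94.3 and 121, above the bounds of every other library.

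The granule cell genes divided into those whose libraries overlapped between the mice and those lower in mouse 3. Cbln1 read 54.6, 54.0 and 54.0 FPKM in mouse 1, 51.2, 52.9 and 51.7 in mouse 2, and 51.4 and 61.6 in mouse 3. Cbln3 read 38.6, 40.5 and 39.9 FPKM in mouse 1, 36.1, 39.2 and 40.6 in mouse 2, and 35.7 and 49.0 in mouse 3. Library 2 of mouse 3 was the highest of the 8 for both. Library 1 of mouse 3 lay within the range of mice 1 and 2 for Cbln1 and was the lowest of the 8 for Cbln3. The ratio of Cbln1 to Cbln3 was 1.35 ± 0.0109 (SD, n = 3) and ranged from 1.26 to 1.44 over the libraries. Both ends of this range were in mouse 3, at 1.44 in library 1 and 1.26 in library 2. The mean of that mouse averages them, so the SD between mice understates the spread. Fat2 read 6.32, 6.35 and 6.70 FPKM in mouse 1, 5.32, 7.09 and 6.62 in mouse 2, and 6.56 and 5.08 in mouse 3, so its lowest value was in the library where Cbln1 and Cbln3 were highest.

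Zic1, Zic2 and Neurod1, which encode transcription factors, were lower in mouse 3 than in mice 1 and 2. Zic1, a zinc finger protein, read 30.5, 31.2 and 31.9 FPKM in mouse 1, 31.2, 29.3 and 31.5 in mouse 2, and 23.4 and 26.9 in mouse 3. Zic2, a close relative, read 19.9, 19.9 and 18.2 FPKM in mouse 1, 20.5, 16.2 and 18.5 in mouse 2, and 13.7 and 13.8 in mouse 3. Neurod1, a bHLH factor of granule cell differentiation, read 23.5, 22.7 and 23.1 FPKM in mouse 1, 29.9, 21.3 and 20.7 in mouse 2, and 14.1 and 17.7 in mouse 3. For these 3 of the 9 genes both libraries of mouse 3 lay below all 6 others, as they did for 21.7% of tested genes. Pcp2 was the only one of the 9 with both libraries of mouse 3 above all 6 others, which held for 26.5% of tested genes.

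A moderated F-test (limma) on log2(FPKM + 1) compared the mice. This scale understates the change of low genes. Of the 9 genes, 1 differed between the mice at an adjusted p under 0.05, and of all 13001 tested genes 3310 did (25.5%). That gene was Zic2, with a range of mouse means of 0.47 on the log2 scale and an adjusted p of 0.0298. Its adjusted p rose to 0.160 without library 2 of mouse 3, when 126 tested genes passed, to 0.0859 without library 1 of mouse 3, and to between 0.0568 and 0.0711 without a library of mouse 1. Neurod1 (adjusted p = 0.0559), Zic1 (0.0596) and Pcp2 (0.0720) missed the threshold, as did Car8 (0.162), Ppp1r17 (0.511), Cbln1 (0.601), Fat2 (0.673) and Cbln3 (0.762).

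Between mice 1 and 2 none of the 9 genes differed by the contrast of the limma fit, and 1 of all tested genes did (0.00769%). At an unadjusted p under 0.05 none of the 9 passed either.

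Against mouse 1, mouse 3 was lower for 3 of the 9 genes, beside 15.0% of tested genes, and higher for 0, beside 14.7% (29.7% in either direction). The difference was −0.30 ± 0.09 for Zic1 (log2, SE; adjusted p = 0.0337), −0.47 ± 0.11 for Zic2 (0.0153) and −0.52 ± 0.16 for Neurod1 (0.0393). Pcp2, at 0.57 ± 0.21 (0.0717), and Car8, at 0.46 ± 0.19 (0.1004), did not pass. Leaving out a library of mouse 3 leaves 1 in that mouse, so the differences alone are given here. With library 2 left out, Zic1 stood at −0.40, Pcp2 at 0.19 and Car8 at 0.064. With library 1 left out, Zic2 was lower and Pcp2 (0.94), Car8 (0.86), Ppp1r17 (0.49) and Cbln3 (0.30) were higher. The count of the 9 genes called was 0 without library 1 or library 2 of mouse 1. Of 12997 tested genes, 950 and 1171 were then higher and 997 and 940 lower. The count was 1 without library 3 of mouse 1, beside 1020 higher and 872 lower of 12987.

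Against mouse 2, mouse 3 was lower for the same 3 genes, beside 13.1% of tested genes, and higher for Pcp2, beside 19.0%. The differences were −0.28 ± 0.09 for Zic1 (adjusted p = 0.0411), −0.39 ± 0.11 for Zic2 (0.0253), −0.55 ± 0.16 for Neurod1 (0.0307) and 0.71 ± 0.21 for Pcp2 (0.0329). Both comparisons use the libraries of mouse 3, so the second is not separate evidence. Without library 2 of mouse 3, Zic1 alone passed (−0.38, adjusted p = 0.0475), and Pcp2 stood at 0.34 (0.235). Once the trend with transcript length was removed, Pcp2 turned to −0.15 (0.364). The count was 1 without library 3 of mouse 1 or library 3 of mouse 2, and 2 without library 2 of mouse 1 or library 1 of mouse 2. Without library 1 of mouse 3 it was 5, all higher in mouse 3: Pcp2 (1.09), Car8 (0.85), Ppp1r17 (0.71), Cbln3 (0.34) and Cbln1 (0.24), with none of Zic1, Zic2 and Neurod1 called. On the scale where every library has the same total, the median of all tested genes lay at −0.25 in mouse 3 against mouse 1 and at −0.21 against mouse 2. Against mouse 1 Zic1, Zic2 and Neurod1 lay further down than this median, at −0.58, −0.74 and −0.80, and Fat2 joined them at −0.38 (adjusted p = 0.0253). The difference of Pcp2 from mouse 2 was 0.41 there and did not pass (0.0772). Among all tested genes, those higher and lower in mouse 3 than in mouse 1 numbered 799 and 5500 on that scale, in place of 1905 and 1955, and against mouse 2 they numbered 1005 and 4871, in place of 2473 and 1704.

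**Figure D4:**
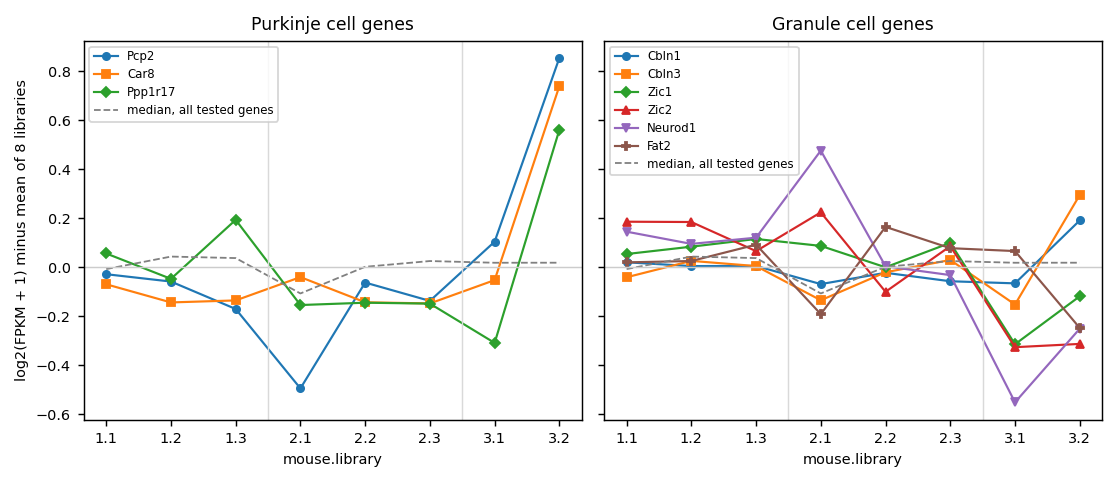
Difference of log2(FPKM + 1) from the mean of the 8 libraries (vertical axis) by library (horizontal axis, mouse.library), for the Purkinje cell genes on the left and the granule cell genes on the right; the dashed line is the median of all tested genes. In library 2 of mouse 3 the Purkinje cell genes lie at 0.85 (Pcp2), 0.74 (Car8) and 0.56 (Ppp1r17) and the granule cell genes between −0.31 (Zic2) and 0.29 (Cbln3).

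Within each library, which removes its scaling, the ratio of the geometric mean of the 3 Purkinje cell genes to that of the 6 granule cell genes was 1.65, 1.57 and 1.62 in mouse 1 and 1.42, 1.60 and 1.54 in mouse 2. It was 1.93 and 3.09 in mouse 3, above the other mice in both libraries. This order of library 1 depended on the trend with transcript length. With that trend removed, the mean of the Purkinje cell genes minus that of the granule cell genes, each as a deviation of log2(FPKM + 1) from its mean of 8 libraries, was −0.02 in library 1 of mouse 3, within the −0.13 to 0.01 of mice 1 and 2. In library 2 of mouse 3 it was 0.44, beside 0.79 with the trend. Pcp2 to Car8 ranged from 1.75 in library 1 of mouse 2 to 2.68 in library 1 of mouse 3, and Ppp1r17 to Car8 from 0.321 in library 1 of mouse 3 to 0.493 in library 3 of mouse 1. Zic1 to Zic2 was 1.71 ± 0.112 (SD, n = 3).

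Other genes known from the same cells did not move as a block, and the part of other cells in their levels was not tested. Of 21 further Purkinje cell genes with at least 1 FPKM, of 22 listed, 9 differed between the mice, and mouse 3 was the highest for 3 of them and the lowest for 6, beside 14.1% and 11.3% of tested genes. Those higher were Gng13, a G protein subunit (range of mouse means 1.07 on the log2 scale), Aldoc, an aldolase of zebrin-positive Purkinje cells and of astrocytes (0.93), and Pcp4, a calmodulin regulator that is also widespread in the forebrain (0.53). Among those lower were the transcription factors Foxp2 (0.66) and Lhx1 (0.52). The median difference of mouse 3 from the mean of the other mice was −0.23 over these 21 genes, 0.46 over Pcp2, Car8 and Ppp1r17, and 0.02 over all tested genes. It was −0.24 over the 21 genes and 0.06 over the 3 without library 2 of mouse 3. None of the 21 reached the 1.5-fold excess of library 2 over library 1 of mouse 3, the nearest being Calb1 at 1.41, Gng13 at 1.41 and Pcp4 at 1.39.

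Of 14 further granule cell genes with at least 1 FPKM, of 15 listed, 3 differed between the mice, and all 3 were lowest in mouse 3, a share of calls near the 25.5% of all tested genes. These were Neurod2, a bHLH factor (range 0.54), Fstl5, a secreted follistatin relative (0.41), and Etv1, an activity-regulated ETS factor (0.31). Gabra6 read between 30.0 and 33.9 FPKM in the libraries of mice 1 and 2, and 31.8 and 45.0 in mouse 3. Over the 14 genes the median log2 ratio of library 2 over library 1 of mouse 3 was 0.04, from 0.56-fold for Reln to 2.05-fold for Barhl2, which was the only one of them at 1.5-fold or more. Gabra6 lay at 1.41-fold. The median difference of mouse 3 from the mean of the other mice over these 14 genes was −0.09. It was −0.12 without library 2 of mouse 3.

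**Figure D5:**
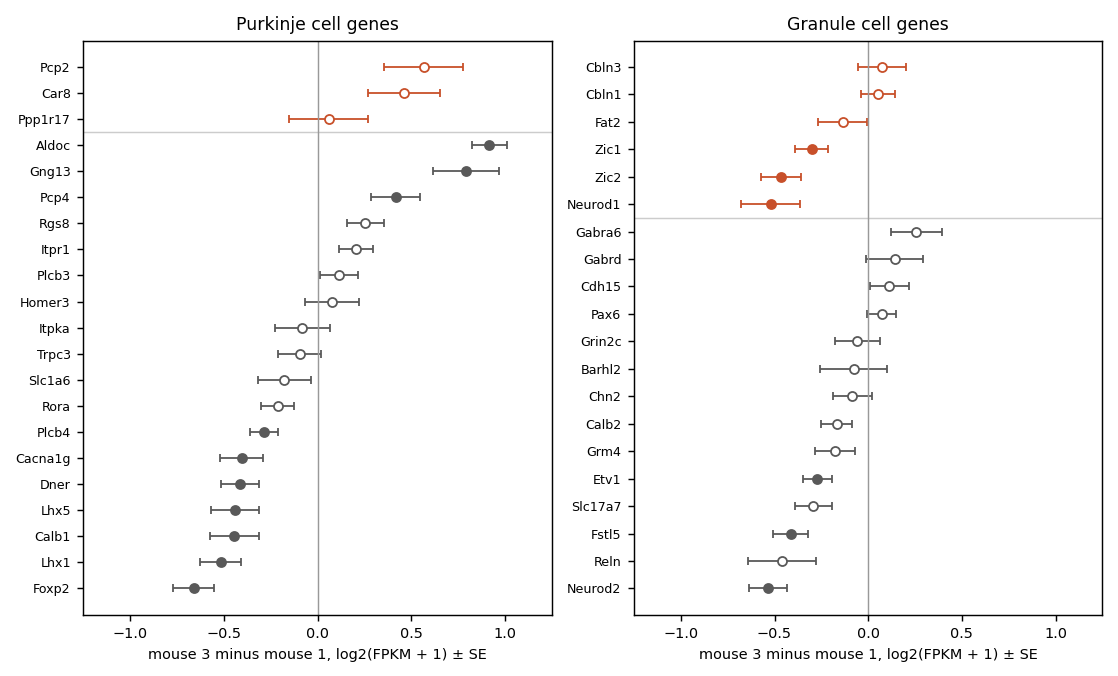
Difference of mouse 3 from mouse 1 in log2(FPKM + 1) with its standard error (horizontal axes) for the Purkinje cell genes on the left and the granule cell genes on the right; the 9 genes are orange and stand above the grey line, the further genes of each cell are grey, and filled points passed an adjusted p of 0.05. The further Purkinje cell genes that are drawn run from −0.66 (Foxp2) to 0.92 (Aldoc), and Zic1, Zic2 and Neurod1 are the filled points among the 9.

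Partners and relatives of the 9 genes are given next. Of 7 genes listed as partners of the cerebellins or of their relatives, 3 differed between the mice and were lowest in mouse 3. Among all tested genes 11.3% did so. The 3 included Nrxn3 (range 0.79) and Adgrb3 (0.29). Nrxn3 read between 39.9 and 44.1 FPKM in mice 1 and 2, and 27.3 and 22.1 in mouse 3. Of 11 tested relatives of 13 listed, Neurod2 and Car10, a brain-expressed relative of Car8, differed, a share below the 25.5% of all tested genes, and both were lowest in mouse 3. The median difference of mouse 3 from the mean of the other mice was −0.31 over the partners and −0.12 over the tested relatives. Leaving out library 2 of mouse 3 gave −0.23 and −0.02. With all 8 libraries, Zic4 (adjusted p = 0.665) and Zic5 (0.431) did not pass the F-test.

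Markers of some other cells, but not of all, differed in mouse 3 as well. Over all tested genes, 14.1% were called with mouse 3 highest and 11.3% with mouse 3 lowest. Summed over Gdf10, Hopx and Slc1a3, markers of Bergmann glia of which Hopx and Slc1a3 are shared with other astrocytes, FPKM was between 201 and 224 in the libraries of mice 1 and 2 and 323 and 346 in mouse 3, and 2 of the 3 genes were called higher. Gdf10, the more selective marker, did not pass (adjusted p = 0.547). Summed over 6 markers of cortical excitatory neurons, it was between 61.0 and 67.6 in mice 1 and 2 and 46.8 and 44.8 in mouse 3, and 3 of the 6 were called lower. For 6 markers of cerebellar interneurons it was between 69.3 and 82.7 in mice 1 and 2 and 66.0 and 67.2 in mouse 3, and 1 of the 6, Kit, was called lower. The 5 dentate gyrus markers, from a region that also expresses Neurod1, summed to between 7.56 and 9.18 in mice 1 and 2 and 8.19 and 8.96 in mouse 3, with 0 of 3 tested called. The 4 olfactory bulb markers, from a region that also expresses Zic1 and Zic2, summed to between 16.0 and 19.5 in mice 1 and 2 and 21.5 and 21.3 in mouse 3. Of the 3 tested olfactory bulb markers 1, Doc2g, was called and was higher in mouse 3. Without Doc2g the sum was between 9.24 and 11.9 in mice 1 and 2 and 10.4 and 8.95 in mouse 3. Leaving out library 2 of mouse 3 leaves 1 library of that mouse. The median log2 difference of mouse 3 from the mean of the other mice was then 0.53 over the Bergmann glia markers. It was −0.48 for cortical excitatory, −0.20 for cerebellar interneuron, 0.05 for dentate gyrus and 0.02 for olfactory bulb markers. With this library the medians were, in the same order, 0.53, −0.48, −0.30, 0.08 and −0.07. The part of these cells in the levels of the 9 genes was not tested.

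The genes most like each set were found by the root mean square difference from the set's mean centred profile over the 8 libraries. For the granule cell genes these were Zfp422 (0.0182 on the log2 scale), AW549877 (0.0234), Atp1b1 (0.0274), Synpo2 (0.0280) and Ppp1r3f (0.0289), beside a median of 0.183 over all tested genes. Each of these 5 was lowest in library 1 of mouse 3, as Atp1b1 was at 483 FPKM beside 559 to 597 in mice 1 and 2. For the Purkinje cell genes they were Casq2 (0.0750), Glra2 (0.0783), Fkbp3 (0.0901), Coprs (0.0903) and Pcp4 (0.0925), beside a median of 0.303. Casq2, a calcium-binding protein of intracellular stores, read between 1.69 and 2.27 FPKM in 7 libraries and 4.53 in library 2 of mouse 3. Pcp4, Coprs and Fkbp3 have transcripts of 641, 802 and 945 nucleotides and so belong to the 2590 shortest genes, which read high in this library. Members of a set lay further from the mean profile of its other members, at 0.0562 for Zic1, 0.154 for Cbln1, 0.155 for Zic2, 0.189 for Cbln3, 0.196 for Fat2 and 0.241 for Neurod1, beside a root mean square of 0.0966 of the granule cell profile itself. For the Purkinje cell genes it was 0.124 for Car8, 0.199 for Ppp1r17 and 0.203 for Pcp2. The points of each profile share libraries, so the likeness is a description.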

How the data were processed

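RNA of whole brains was isolated and made into poly(A) libraries (Kapa mRNA HyperPrep) by the authors. They deposited FPKM per RefSeq transcript and library, with lower and upper confidence bounds whose level is not given, and coverage (a signal, reads per base). The submitters' processing notes name TopHat, Cufflinks and mm10. Versions, strand setting and read length are not given in the sources used here, so no counting interval was computed. The status was FAIL for 8 values, none of a member gene.

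FPKM values were summed over a gene's transcripts, averaged per mouse, then over mice. Genes averaging 1 FPKM or more were tested on log2(FPKM + 1) with limma 3.58.1 (R 4.3.3) with the mouse as factor and Benjamini-Hochberg adjustment over 13001 genes at 0.05. On simulated data the test recovered 157 of 200 genes changed by 1 (log2) in mouse 3, with 4 false calls, and 0 of 200 changed by 0.5. Only 200 of 13001 genes were changed there, whereas 3310 were called in the data. The adjustment was therefore stricter in the simulation, and its recovery does not carry over to these data. Gene locations and promoters come from RefSeq (GRCm38.p6) and the deposited loci, with starts shifted to count from 1.

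Text names the 9 genes and, of each list, at most 6 genes past the threshold with the largest range, otherwise the highest, and the 5 genes nearest each set in profile. The genes and lists were chosen with earlier results of these data known. Some listed genes are counted but not reported here by name. Calb1, Gabra6, Gdf10, Lhx1, Zic4, Zic5 and Kit were named for their role or to complete a count. Alternatives were another pseudocount, other minimum levels, 2 scalings, removal of the trend with transcript length (loess), the highest transcript, a trended prior variance, a replicate block and each library left out.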

Additional observations from a re-analysis of the deposited data

Results flagged for a closer look

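Among groups of 8 libraries, about 1 in 20 would have a highest or lowest library apart from the rest by chance under Dixon's criterion. A library stood apart for 4 of the 9 genes and 7 of 13 measures, and in all 7 it was library 2 of mouse 3, so these are not 7 separate observations. By the same criterion this library stood apart for 8.20% of the 13001 tested genes, and apart as the highest for 4.81%. The values there were 178.6 FPKM for Pcp2 (next highest 105.8), 69.1 FPKM for Car8 (39.8), 61.6 FPKM for Cbln1 (54.6) and 49.0 FPKM for Cbln3 (40.6). Among Pcp2 transcripts they were 107.5 FPKM for NM_001129804 (62.0) and 62.3 FPKM for NM_008790 (39.3). The ratio of Purkinje to granule cell genes was 3.09 there (1.93). Ppp1r17, at 24.0 FPKM in the same library (18.3), did not meet the criterion. With the length trend removed, the deviation of Pcp2 from its mean of 8 libraries was 0.05 in library 2 of mouse 3. It was 0.20 in library 1 of mouse 1.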

How the results depend on the processing

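Zic1, Zic2 and Neurod1 were lower in mouse 3 than in mouse 1 and than in mouse 2 under every alternative run, whereas their calls were not stable. The count of the 9 genes that differed between the mice was 1, and it was 3 with a minimum of 5 FPKM, 4 on the TPM scale (same total in every library), 3 with a trended prior variance and 0 with the length trend removed, and it ranged from 0 to 3 with a library left out. Mouse 3 against mouse 1 gave 3 calls, 1 with the length trend removed and 0 to 5 with a library left out. Mouse 3 against mouse 2 gave 4, then 2 with no minimum level, 2 with the length trend removed and 1 to 5 with a library left out. The further granule cell genes gave 3 calls, 8 on the TPM scale, 1 with the highest transcript and 0 to 4 with a library left out, and the further Purkinje cell genes 9, 15 on the TPM scale and 2 to 9 with a library left out. All tested genes gave 3310 calls, 5634 on the TPM scale and 126 to 3873 with a library left out.

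Deviations of same-numbered libraries correlated at 0.00276 to 0.107 over 7 pairs, and those of other numbers at −0.135 to 0.0645 over 14 pairs. The deviations of the 2 libraries of mouse 3 mirror each other, so their pairs are not separate. These small values do not settle whether library numbers pair the mice. With the replicate block 1 of the 9 genes and 2995 of all tested genes differed between the mice, and mouse 3 against mouse 1 gave 1 call in place of 3.

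Some differences that were not called changed sign, given here as mouse 3 against mouse 1 and against mouse 2. With the length trend removed Pcp2 read −0.20 and −0.15, Fat2 0.19 and 0.25, and Ppp1r17 −0.075 against mouse 1; the Pcp2 difference from mouse 2 had been called. On the TPM scale Ppp1r17 read −0.22 and −0.013, Cbln1 −0.24 and −0.19, and Cbln3 −0.21 and −0.19, near the median shift of all genes. Without library 2 of mouse 3 Ppp1r17 read −0.38 and −0.16, Cbln1 −0.076 and −0.016, Cbln3 −0.15 and −0.11, and Fat2 0.020 and 0.049. Over all libraries left out in turn the ranges reached 0.49 and 0.71 for Ppp1r17, 0.18 and 0.24 for Cbln1, 0.30 and 0.34 for Cbln3, and −0.29 and −0.26 for Fat2 at their other ends. The level of Pcp2 was 60.7 FPKM by its highest transcript, and that of Cbln3 ranged from 38.0 to 42.4 FPKM with a library left out. The causes were not tested. FPKM carry no counts, and 2 libraries of mouse 3 limit what its spread can show.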
